A study of Mus musculus with 36 samples.

Results

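The 5 mouse genes Gfap, Sox9, Fgfr3, Aqp4 and Aldoc belong to astrocytes, the star-shaped glial cells of the brain, and were followed through a ribosome-tagging experiment that was aimed at macrophages. They were chosen by symbol from 12173 genes listed in both deposited count tables, one holding both lines at steady state (12580 genes) and one the Lyve1 line with and without LPS (12403 genes), and all 5 passed the filter on low counts in each. All mice carried a split Cre recombinase, whose N-terminal and C-terminal pieces are driven by separate promoters and act only in cells that make both, together with the Ribo-tag allele, which Cre switches so that ribosomes carry an HA tag. The Sall1 line had the genotype CX3CR1-CCre+/-:Sall1-NCre+/-:Ribo-tag+/- and is labelled as targeting microglia. The Lyve1 line had the genotype CX3CR1-CCre+/-:Lyve1-NCre+/-:Ribo-tag+/- and is labelled as targeting Lyve1+ macrophages. Brain homogenate was precipitated with anti-HA antibody or, as the background control, with anti-IgG antibody, and the recovered RNA was counted by MARS-seq, which reads the 3′ ends of transcripts. The 6 groups analysed were anti-HA and anti-IgG precipitates of the Sall1 line at steady state (6 libraries each), of the Lyve1 line at steady state (6 each), and of the Lyve1 line 12 h after an intraperitoneal injection of 2.5 mg/kg lipopolysaccharide (LPS, a bacterial cell wall component; 4 each). The 4 LPS libraries of the Sall1 line were not analysed here. Ages were not given, and no label ties a library to one animal, so that p-values measure the spread between libraries, which may be partly technical.

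Gfap encodes the glial fibrillary acidic protein, the intermediate filament of astrocytes whose rise is the classic sign of astrocyte reactivity after injury or inflammation. Cytokines of the interleukin-6 type can raise it through the transcription factor Stat3, which binds a palindromic DNA site. Sox9 is a transcription factor that astrocytes keep throughout adult life, Fgfr3 is a receptor for fibroblast growth factors, Aqp4 is the water channel of the astrocyte endfeet that wrap blood vessels, and Aldoc is the brain form of the glycolytic enzyme aldolase. None of the 5 is a marker of the cells named in the labels. RNA of a cell type that carries no tag reaches an anti-HA precipitate as background, which is why each level is given beside that of the anti-IgG precipitate.

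Total counts per library ran from 1252785 to 1655096 in the Sall1 anti-HA group, 857553 to 1696679 in Sall1 anti-IgG, 603827 to 1495746 in Lyve1 anti-HA, 890640 to 1474838 in Lyve1 anti-IgG, 682445 to 1380452 in Lyve1 LPS anti-HA and 362063 to 976737 in Lyve1 LPS anti-IgG. Levels are CPM, counts relative to the library's total, scaled by the TMM factors of edgeR. Differences are log2 ratios ± SE from edgeR's quasi-likelihood fit of each table, with p-values adjusted by Benjamini and Hochberg over all genes tested and a threshold of 0.05. The 2 Y-linked genes Ddx3y and Eif2s3y together held 0 to 4 counts in all 12 steady-state Lyve1 libraries and 15 to 60 in all 8 LPS libraries, so within the Lyve1 line the LPS contrast and this Y-linked pattern cannot be told apart. In the Sall1 line 4 of 6 libraries of each precipitate held such counts. Those without were libraries 3-1 and 3-2 of both precipitates, so in that line the Y-linked pattern and the first library number 3 cannot be told apart. Summed over 8 other astrocyte markers (among them Slc1a3, Slc1a2, Gja1, Gjb6, Aldh1l1 and Glul), the level was 1080 to 1548 CPM in Lyve1 anti-HA, 1057 to 1372 in Lyve1 anti-IgG, 1402 to 1639 in LPS anti-HA and 1382 to 1664 in LPS anti-IgG, with no marker at 0 in any group. In such bulk samples, more cells of a type and more RNA per cell cannot be told apart.

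Gfap was expressed at similar levels in the 4 steady-state groups. Its level ran from 99.4 to 154 CPM with a median of 115 in Sall1 anti-IgG, from 119 to 220 with a median of 139 in Sall1 anti-HA, from 107 to 170 with a median of 147 in Lyve1 anti-IgG, and from 108 to 274 with a median of 152 in Lyve1 anti-HA. After LPS the anti-IgG libraries held 657, 822, 859 and 889 CPM, and the anti-HA libraries 617, 763, 861 and 1098 CPM. Every LPS library lay above every steady-state library of either line. The means were 142 ± 26.7 CPM (SD, n = 6) and 807 ± 104 (n = 4) in anti-IgG, and 167 ± 60.1 (n = 6) and 835 ± 202 (n = 4) in anti-HA.

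**Figure D1:**
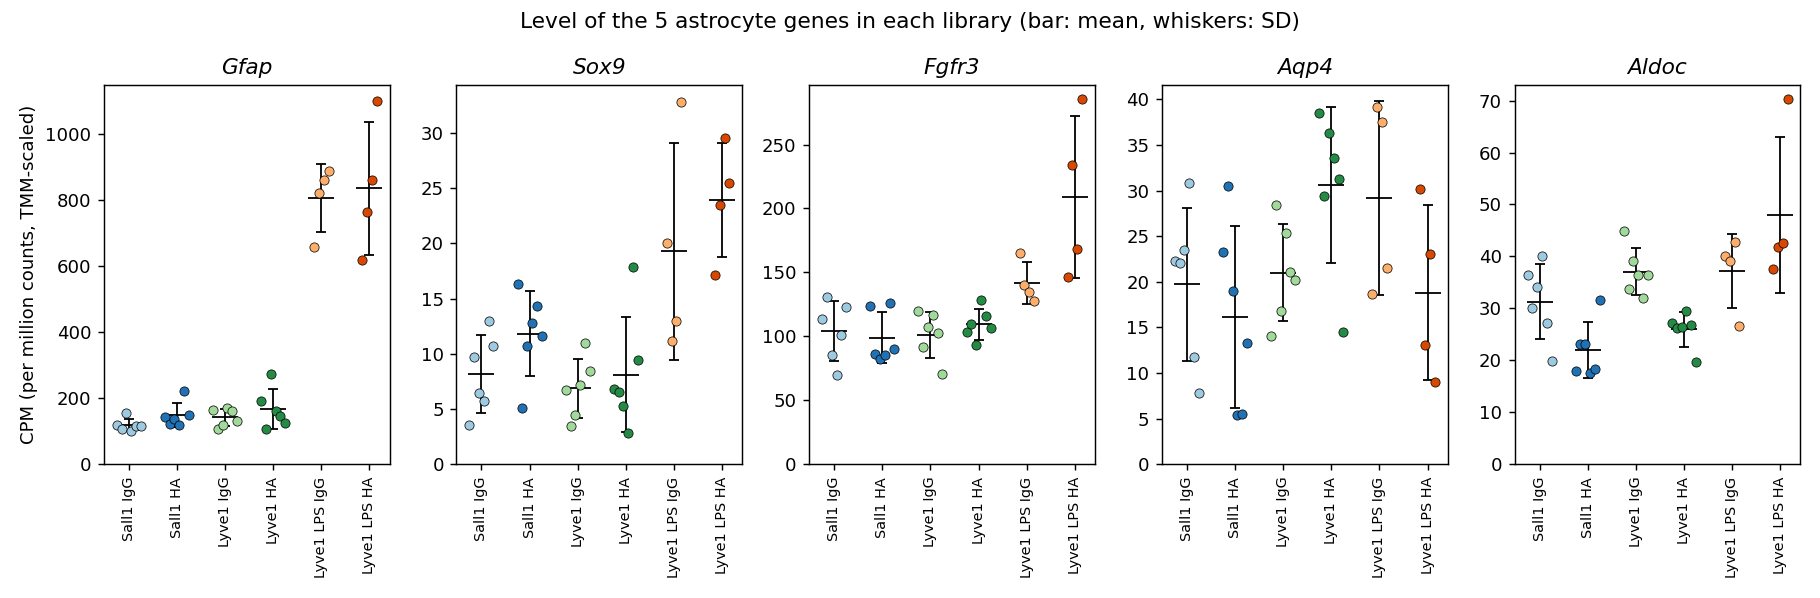
CPM of each of the 5 genes (1 panel each, linear axis from 0) in each library of the 6 groups; points are libraries, bars group means and whiskers SD. The 8 LPS libraries of Gfap sit between 617 and 1098 CPM, above all 24 steady-state libraries, whereas the groups of Aqp4 overlap in every comparison made.

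Gfap rose in both precipitates after LPS. The log2 ratio was 2.30 ± 0.20 in anti-HA (4.93-fold, adjusted p = 4.78e-09) and 2.51 ± 0.20 in anti-IgG (5.69-fold, adjusted p = 1.46e-09). By p-value Gfap was number 41 among 9680 genes in anti-HA and number 25 in anti-IgG. Over all genes tested, 17.5% passed in anti-HA and 13.4% in anti-IgG. Of the 5 genes, 4 passed in anti-HA (Gfap, Sox9, Fgfr3 and Aldoc) and 3 in anti-IgG (Gfap, Sox9 and Fgfr3), each of them higher after LPS, against 9.46% and 6.92% of all genes that passed as higher and 8% and 6.44% that passed as lower. The contrasts in anti-HA and in anti-IgG share no library, but both precipitates were made from each brain, per the series' design text, so that they share animals. The interaction and the comparisons between precipitates reuse the same libraries. The change of the anti-HA to anti-IgG ratio with LPS, an interaction term, was -0.21 ± 0.28 for Gfap, with a 95% interval from -0.79 to 0.38 (adjusted p = 0.725). When both tables were joined and a term for Y-linked counts was added, which rests on the 4 against 2 libraries of each Sall1 group, the Gfap ratios were 2.54 ± 0.26 in anti-HA and 2.75 ± 0.26 in anti-IgG. Within the Sall1 line, libraries with Y-linked counts differed from those without by -0.51 ± 0.25 in anti-HA (adjusted p = 0.247) and 0.08 ± 0.26 in anti-IgG (adjusted p = 0.904).

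**Figure D2:**
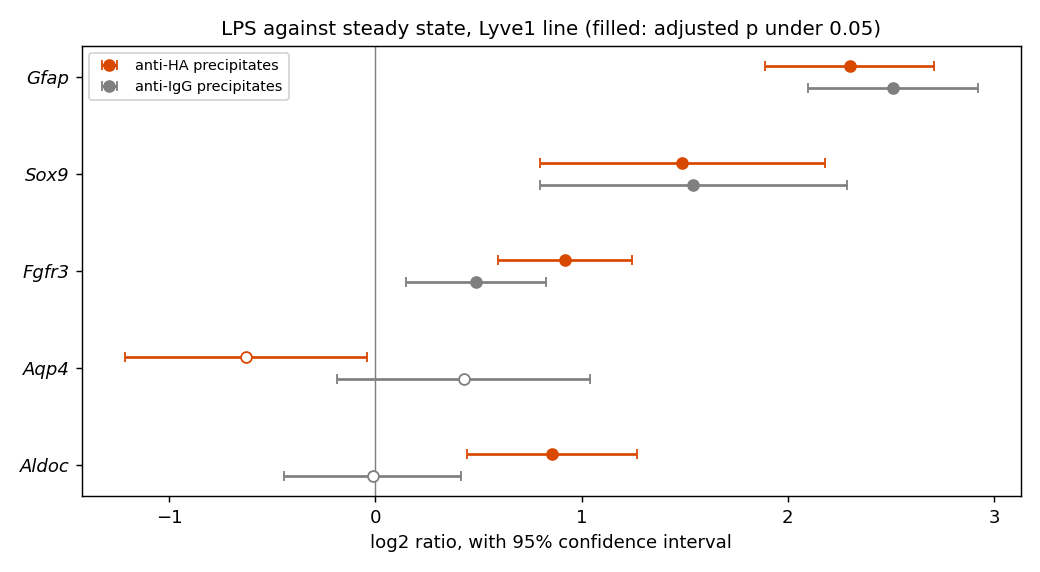
Log2 ratio of LPS against steady state in the Lyve1 line with 95% confidence intervals, for anti-HA (orange) and anti-IgG (grey) precipitates; filled points have an adjusted p under 0.05. Gfap lies at 2.30 and 2.51, Sox9 at 1.49 and 1.54, and the estimates for Aqp4 lie on either side of 0, at -0.63 and 0.43.

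The promoter of Gfap is shown because a Stat-type letter pattern lies in it, and that of Aldoc, at the second of its 2 annotated start sites, because it holds the same pattern. Each stretch reads 5′ to 3′ on the gene's strand from 250 bases before to 50 bases after an annotated start and comes from RefSeq on build GRCm38.p6. Gfap lies at chr11:102897151-102897450 on the minus strand and Aldoc at chr11:78323948-78324247 on the plus strand. Capitals mark matches to TTCNNNGAA, which reads the same on both strands.
Gfap: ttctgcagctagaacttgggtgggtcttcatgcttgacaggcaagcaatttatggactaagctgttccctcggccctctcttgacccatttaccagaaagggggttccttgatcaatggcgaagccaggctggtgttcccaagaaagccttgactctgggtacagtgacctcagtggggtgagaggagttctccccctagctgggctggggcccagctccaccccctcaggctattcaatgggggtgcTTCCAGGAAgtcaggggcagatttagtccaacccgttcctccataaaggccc
Aldoc: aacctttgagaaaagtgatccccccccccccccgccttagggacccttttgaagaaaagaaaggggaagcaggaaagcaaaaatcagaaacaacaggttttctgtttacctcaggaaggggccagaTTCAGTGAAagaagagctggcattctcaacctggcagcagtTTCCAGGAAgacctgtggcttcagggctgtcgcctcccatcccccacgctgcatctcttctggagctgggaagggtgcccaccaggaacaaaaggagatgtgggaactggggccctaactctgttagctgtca
The Gfap match begins 2 bases before the annotated start. The Aldoc matches begin 124 and 83 bases before theirs, and the one at 83 has the same 9 letters as that of Gfap. Of the 32851 promoter windows of this length in the table, 8.3% held such a match. The first Aldoc window and both Fgfr3 windows (chr5:33721474-33721773 and chr5:33722056-33722355, plus strand) held none. Of 3 other patterns searched on both strands, none matched in any of these 5 windows: TGANTCA (AP-1, in 7.81% of all windows), AACAAT (Sox, in 10.7%) and the palindromic NFI motif (in 0.0365%). Windows are described only for Gfap, Fgfr3 and Aldoc, and none is given for Sox9 or Aqp4. A match describes letters and is not shown to be a site.

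The intermediate filament partners of Gfap rose in part. Of 5 tested, 1 rose in anti-HA and 4 in anti-IgG, with none lower in either, where 9.46% and 6.92% of all genes passed as higher. The medians were 0.45 and 1.08 on the log2 scale against -0.02 and 0.01 over all genes tested. Synm, synemin, which joins intermediate filaments to other structures, rose in both (1.30 ± 0.32, adjusted p = 0.00789, and 1.47 ± 0.30, adjusted p = 0.00244). Vim, vimentin, the filament that assembles with Gfap in reactive astrocytes, rose in anti-IgG (0.87 ± 0.19, adjusted p = 0.00161), from 48.6 ± 9.25 CPM (SD, n = 6) to 87.1 ± 14.7 (n = 4). In anti-HA its ratio was 0.17 ± 0.19 (adjusted p = 0.576), and the difference between the precipitates was -0.70 ± 0.27 (adjusted p = 0.133). The other 2 that passed in anti-IgG were Nes (1.08 ± 0.32) and Dst (1.35 ± 0.31), which were named after their values were seen.

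Most tested genes reported for reactive astrocytes rose in the libraries in which Gfap was high. Of 12 pan-reactive genes 9 could be tested, and 8 rose in anti-HA (median 4.13) and all 9 in anti-IgG (median 3.50). Lcn2, the secreted iron-carrier binding protein lipocalin 2, reached 998 ± 210 CPM (SD, n = 4) in LPS anti-HA and 403 ± 82.2 in LPS anti-IgG, from 1.08 ± 1.40 and 0.594 ± 0.691 (n = 6), and Serpina3n, a protease inhibitor, rose by 4.45 ± 0.25 and 3.74 ± 0.25. Of 12 genes reported for the LPS type of reactivity 9 could be tested, and 8 rose in each precipitate (medians 1.81 and 1.59), among them Fkbp5 (1.63 ± 0.15 and 1.59 ± 0.15), a co-chaperone induced by glucocorticoids, and complement C3 in anti-HA (4.19 ± 0.45). Only 4 of 12 genes of the injury type passed the filter on counts, of which 3 rose in anti-HA (Cd14, Sphk1 and S100a10) and 1 in anti-IgG, the LPS co-receptor Cd14 (2.60 ± 0.35 and 1.38 ± 0.42). Among the steady-state libraries of both lines, only 3 pan-reactive, 6 LPS-type and 2 injury-type genes passed that filter. More passed once the LPS libraries were included, so the shares that rose and the medians lean towards genes that are high after LPS. Over all genes tested, 9.46% passed as higher in anti-HA and 6.92% in anti-IgG. Many genes of these lists are also made by macrophages, endothelium or fibroblasts. Summed marker levels were higher in the LPS libraries for fibroblasts and endothelium in both precipitates and for microglia in anti-HA, and overlapped for microglia in anti-IgG and for border macrophages in both precipitates. The 8 astrocyte markers summed above were also higher after LPS in anti-IgG, at 1382 to 1664 against 1057 to 1372 CPM. In anti-HA their sums overlapped. Lyve1+ macrophages are the labelled target of the Lyve1 line. The 5 fibroblast markers listed summed to 3089 to 3887 CPM in Lyve1 anti-HA against 5043 to 6184 after LPS, and to 1910 to 2243 against 2661 to 3286 in anti-IgG. The 6 endothelial markers summed to 67.5 to 139 against 236 to 292 CPM in anti-HA, and to 61.4 to 92.1 against 144 to 152 in anti-IgG. The 12 microglial markers summed to 879 to 1443 against 1753 to 2275 CPM in anti-HA, and to 505 to 783 against 737 to 960 in anti-IgG, where P2ry12 was at 0 after LPS. The 8 border macrophage markers summed to 77.1 to 209 against 101 to 133 CPM in anti-HA, and to 19.5 to 30.2 against 15.8 to 41.1 in anti-IgG. Their part in these results was not tested.

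The Il6-type cytokine and Stat3 pathway had 12 genes tested, of which 5 rose in anti-HA (median 0.54) and 3 in anti-IgG (median 0.20), with none lower. Over all genes, 9.46% and 6.92% passed as higher. Among the steady-state libraries of both lines 11 genes of this list passed the filter on counts. The shares and medians can therefore lean towards genes that are high after LPS. Osmr stands both in this list and in the pan-reactive list, so the 2 lists are not separate. Socs3, the feedback inhibitor of this pathway, rose by 2.51 ± 0.30 in anti-HA (adjusted p = 1.27e-07) and 2.68 ± 0.30 in anti-IgG (adjusted p = 2.70e-08), from 5.66 ± 3.09 CPM (SD, n = 6) to 34.1 ± 10.7 (n = 4) in anti-HA. Cebpb, a transcription factor of the acute phase response, rose by 1.39 ± 0.17 and 1.54 ± 0.19. Stat3 itself, named after its values were seen, rose by 1.43 ± 0.25 (adjusted p = 0.000137) and 1.02 ± 0.26 (adjusted p = 0.0074).

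**Figure D3:**
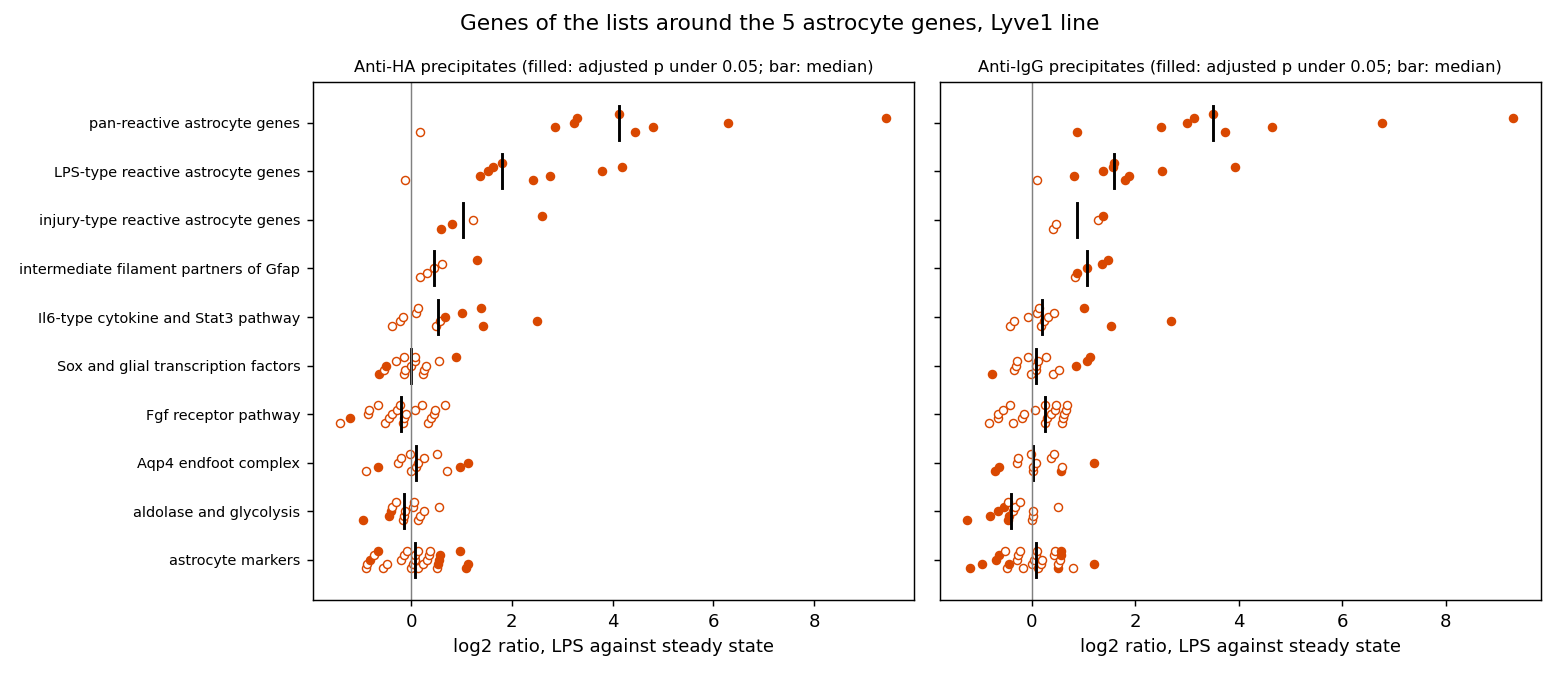
Log2 ratio of LPS against steady state for each tested gene of 10 lists, in anti-HA (left) and anti-IgG (right) precipitates of the Lyve1 line; filled points have an adjusted p under 0.05 and black bars are list medians. The pan-reactive list has medians of 4.13 and 3.50, whereas the 27 genes of the astrocyte marker list spread on both sides of 0 with medians of 0.08 and 0.09. More pan-reactive genes passed the filter on counts with the LPS libraries included than without them.

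General astrocyte markers, among them the 8 above, split in direction. Of 27 tested, 6 rose and 2 fell in anti-HA, and 4 rose and 5 fell in anti-IgG, with medians of 0.08 and 0.09. Beside them, 17.5% of all genes passed in anti-HA and 13.4% in anti-IgG. Fam107a, an actin-bundling protein induced by stress, rose in both (1.10 ± 0.13 and 1.20 ± 0.13), as did the secreted protease Htra1 in anti-HA (1.13 ± 0.13). Mfge8, a bridging protein for the uptake of apoptotic cells, fell in anti-IgG (-1.19 ± 0.14, adjusted p = 1.27e-07).

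Sox9 was the scarcest of the 5 in counts, with 2 to 41 per library. With only the steady-state libraries of the Lyve1 line fitted, it did not pass the filter on counts, which it passed with the LPS libraries included. Its level ran from 3.52 to 12.97 CPM with a median of 8.06 in Sall1 anti-IgG, from 5.08 to 16.3 with a median of 12.2 in Sall1 anti-HA, from 3.45 to 10.9 with a median of 6.91 in Lyve1 anti-IgG, and from 2.80 to 17.9 with a median of 6.67 in Lyve1 anti-HA. After LPS the anti-IgG libraries held 11.2, 12.96, 20.1 and 32.9 CPM, and the anti-HA libraries 17.1, 23.5, 25.4 and 29.5 CPM. Within the Lyve1 line the anti-IgG groups did not overlap, while in anti-HA 1 steady-state library, at 17.9 CPM, lay above the lowest LPS library. The highest Sall1 anti-IgG library, at 12.97 CPM, exceeded the LPS anti-IgG libraries at 11.2 and 12.96 CPM. Sox9 rose by 1.49 ± 0.34 in anti-HA (2.81-fold, adjusted p = 0.00205) and by 1.54 ± 0.37 in anti-IgG (2.91-fold, adjusted p = 0.00343). The anti-IgG call rested on the LPS library numbered 2-2, without which the ratio was 1.10 ± 0.43 (adjusted p = 0.105). The interaction was -0.05 ± 0.48 (adjusted p = 0.964), and with the term for Y-linked counts the ratios were 2.04 ± 0.48 and 2.08 ± 0.49.

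Other transcription factors of glia passed in both directions. Of 15 tested, 1 rose and 2 fell in anti-HA, and 3 rose and 1 fell in anti-IgG, with medians of 0.00 and 0.08, beside the 17.5% and 13.4% of all genes that passed. Id3, an inhibitor of basic helix-loop-helix factors, rose in both (0.89 ± 0.17 and 0.86 ± 0.18), and Id2, of the same family, in anti-IgG (1.06 ± 0.26). Olig1, a factor of the oligodendrocyte lineage, fell in anti-HA (-0.50 ± 0.13, adjusted p = 0.00616). Hes5, a target of Notch signalling named after its values were seen, fell in both (-0.64 ± 0.22 and -0.78 ± 0.24). Sox2, a Sox factor of stem cells and glia, rose by 1.12 ± 0.32 in anti-IgG (adjusted p = 0.0146), and its ratio in anti-HA was 0.07 ± 0.30 (adjusted p = 0.899). The close relative Sox8 did not pass the filter on counts.

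Fgfr3 was expressed at similar levels in the 4 steady-state groups. They ran from 69.7 to 131 CPM with a median of 108 in Sall1 anti-IgG, from 82.5 to 126 with a median of 88.4 in Sall1 anti-HA, from 70.8 to 120 with a median of 105 in Lyve1 anti-IgG, and from 93.0 to 129 with a median of 108 in Lyve1 anti-HA. After LPS the anti-IgG libraries held 127, 135, 140 and 165 CPM, and the anti-HA libraries 147, 169, 234 and 286 CPM. LPS and steady state did not overlap in either precipitate of the Lyve1 line, while in the Sall1 line the highest anti-IgG library, at 131 CPM, exceeded the lowest LPS anti-IgG library. Fgfr3 rose by 0.92 ± 0.16 in anti-HA (1.89-fold, adjusted p = 7.72e-05). In anti-IgG it rose by 0.49 ± 0.17 (1.40-fold, adjusted p = 0.0476), a call that was kept only without the steady-state libraries 1-1 or 2-2 and was lost without any of the other 8 libraries of the contrast, with adjusted p up to 0.180, and under 9 of 11 other settings. In the authors' deposited table the anti-IgG contrast has a log2 ratio of 0.47 and an adjusted p of 0.0875. After LPS Fgfr3 was also higher in anti-HA than in anti-IgG, by 0.55 ± 0.18 (adjusted p = 0.0478). That call was kept only without the anti-HA libraries 1-1 or 2-1 and was lost without any of the other 6, with adjusted p up to 0.211 and a ratio down to 0.37 without the anti-HA library 2-2, it was lost under 6 of 12 other settings with adjusted p up to 0.143, and the authors' deposited table gives it an adjusted p of 0.059. It was the only one of the 5 genes to pass between the LPS precipitates, where 9.62% of all genes did. The interaction was 0.43 ± 0.23 (adjusted p = 0.292).

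Almost none of the genes listed around the receptor passed, where 17.5% of all genes passed in anti-HA and 13.4% in anti-IgG. Of 20 other genes of the fibroblast growth factor list tested, none passed in anti-IgG, and 1 fell in anti-HA. It was Dusp6 (-1.22 ± 0.41, adjusted p = 0.0337), a phosphatase that shuts off the kinase ERK downstream of the receptors. The medians were -0.19 in anti-HA and 0.25 in anti-IgG. The sister receptor Fgfr1 had ratios of 0.46 ± 0.23 (adjusted p = 0.16) and 0.63 ± 0.23 (adjusted p = 0.0721), and Fgfr2 of -0.29 ± 0.42 and -0.83 ± 0.47, neither of which passed.

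Aqp4 overlapped between all groups compared. Its level ran from 7.84 to 30.8 CPM with a median of 22.2 in Sall1 anti-IgG, from 5.38 to 30.5 with a median of 16.1 in Sall1 anti-HA, from 14.05 to 28.5 with a median of 20.6 in Lyve1 anti-IgG, and from 14.5 to 38.6 with a median of 32.4 in Lyve1 anti-HA. After LPS the anti-IgG libraries held 18.6, 21.6, 37.6 and 39.1 CPM, and the anti-HA libraries 8.98, 13.1, 23.05 and 30.1 CPM. In anti-HA the 2 lowest LPS libraries lay below every steady-state library of the Lyve1 line, and the groups overlapped in both precipitates. The LPS ratio was -0.63 ± 0.29 in anti-HA, with a 95% interval from -1.22 to -0.04 (adjusted p = 0.131), and 0.43 ± 0.30 in anti-IgG, from -0.19 to 1.04 (adjusted p = 0.393). The interaction was -1.06 ± 0.42 (adjusted p = 0.14).

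Several Aqp4 values turned on single libraries and on the split of the Sall1 libraries by Y-linked counts, which is also the split between first number 3 and the others. Without the LPS anti-HA library 1-1 the anti-HA ratio was -0.93 ± 0.31 (adjusted p = 0.028) and the interaction -1.35 ± 0.43 (adjusted p = 0.0385), and without the steady-state anti-HA library 3-2 the anti-HA ratio was -0.78 ± 0.27 (adjusted p = 0.0443). Within the Sall1 line, Aqp4 differed between libraries with and without Y-linked counts by 1.09 ± 0.47 in anti-HA (adjusted p = 0.181) and 1.32 ± 0.45 in anti-IgG (adjusted p = 0.109). In the joined fit with a term for those counts the LPS ratio was -1.83 ± 0.46 in anti-HA (adjusted p = 0.00391) and -0.77 ± 0.47 in anti-IgG (adjusted p = 0.311), the latter with the opposite sign to the fit without the term.

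The endfoot complex around Aqp4 split in direction. Of 13 other genes tested, 2 rose and 1 fell in anti-HA, and 2 rose and 2 fell in anti-IgG, with medians of 0.11 and 0.03. Among the steady-state libraries of both lines 12 of them passed the filter on counts. Over all genes, 9.46% passed as higher and 8% as lower in anti-HA, and 6.92% and 6.44% in anti-IgG. In anti-HA the chloride channel Clcn2 (1.12 ± 0.18, adjusted p = 3.26e-05) and the cell adhesion protein Hepacam (0.98 ± 0.21, adjusted p = 0.000939) rose. Kcnj10, the potassium channel Kir4.1 that sits beside Aqp4 in the endfoot membrane, fell in anti-HA (-0.65 ± 0.19, adjusted p = 0.0181), and its ratio in anti-IgG was -0.26 ± 0.19 (adjusted p = 0.406). In anti-IgG Mlc1, a membrane protein that binds Hepacam, fell (-0.63 ± 0.15), as did Dag1, dystroglycan, which ties the complex to the basement membrane (-0.70 ± 0.17). The other 2 that passed in anti-IgG, Utrn (1.20 ± 0.34) and Slc4a4 (0.57 ± 0.19), were higher and were named after their values were seen. By the interaction test the precipitates differed in response for 4 of the 13 genes, where 3.23% of all genes passed: Clcn2 (1.09 ± 0.26, adjusted p = 0.0152), Utrn, utrophin (-2.10 ± 0.49, adjusted p = 0.0155), and, named after their values were seen, Dag1 (0.95 ± 0.24) and Mlc1 (0.78 ± 0.21). The same test was passed by 3 of the 27 astrocyte markers, all with a higher anti-HA to anti-IgG ratio after LPS. They included Slc7a10 (1.47 ± 0.31, adjusted p = 0.00897) and Mlc1, which stands in both lists. No gene passed it in the pan-reactive, LPS-type, injury-type, filament partner, Il6-type, glial transcription factor, fibroblast growth factor or glycolysis lists. None of the 5 astrocyte genes passed that test, although 2 of them, Aqp4 and Aldoc, had an unadjusted p under 0.05.

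Aldoc was lower in anti-HA than in anti-IgG in the Lyve1 line at steady state, and rose in anti-HA after LPS. Its level ran from 19.96 to 39.99 CPM with a median of 32.1 in Sall1 anti-IgG, from 17.5 to 31.5 with a median of 20.7 in Sall1 anti-HA, from 32.0 to 44.8 with a median of 36.4 in Lyve1 anti-IgG, and from 19.6 to 29.4 with a median of 26.6 in Lyve1 anti-HA. After LPS the anti-IgG libraries held 26.7, 39.1, 40.2 and 42.8 CPM, and the anti-HA libraries 37.5, 41.8, 42.5 and 70.3 CPM. In anti-HA the LPS and steady-state groups did not overlap, and in anti-IgG they did. Aldoc rose by 0.86 ± 0.20 in anti-HA (1.81-fold, adjusted p = 0.00292), and its ratio in anti-IgG was -0.01 ± 0.21, with a 95% interval from -0.44 to 0.42 (adjusted p = 0.978). The interaction, 0.87 ± 0.29, had an interval from 0.27 to 1.47 and an adjusted p of 0.0864, which was 0.0361 without the LPS anti-HA library 1-1. Without the highest anti-HA library, numbered 2-2, the anti-HA ratio was 0.66 ± 0.20 (adjusted p = 0.0257). With the term for Y-linked counts it was 0.70 ± 0.29 (adjusted p = 0.0694).

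None of the other enzymes of glycolysis, the sugar-splitting pathway in which aldolase works, rose after LPS. Of 14 tested, 3 fell in anti-HA and 6 in anti-IgG, where 8% and 6.44% of all genes passed as lower, and the medians were -0.13 and -0.40. Ldha, lactate dehydrogenase A, fell in both (-0.43 ± 0.12, adjusted p = 0.01, and -0.80 ± 0.12, adjusted p = 9.13e-06), Pgam1 in anti-HA (-0.96 ± 0.32) and the hexokinase Hk1 in anti-IgG (-0.65 ± 0.12). Aldoa, the aldolase found in most tissues, fell in anti-IgG (-0.44 ± 0.13, adjusted p = 0.0224) and had a ratio of -0.12 ± 0.13 in anti-HA (adjusted p = 0.582).

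Library 2-2 of the LPS anti-HA group, the shallowest of its group with 682445 counts, held the highest Gfap, Fgfr3 and Aldoc and the lowest Aqp4 of the 4. Without it the anti-HA ratios were 2.15 ± 0.20 for Gfap, 0.76 ± 0.15 for Fgfr3 and -0.45 ± 0.30 for Aqp4, so that Gfap and Fgfr3 still passed.

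Between precipitates at steady state, 1 of the 5 genes passed in 1 line. In the Lyve1 line 1 of the 5, Aldoc, passed between anti-HA and anti-IgG, where 25.7% of all genes did, and its ratio was -0.54 ± 0.18 (adjusted p = 0.028), with groups that did not overlap. That call was lost without anti-HA library 3-2 (-0.47 ± 0.19, adjusted p = 0.0784), anti-IgG library 1-1 (adjusted p = 0.0734) or anti-IgG library 2-1 (adjusted p = 0.0523), and when libraries sharing a first number were summed (-0.55 ± 0.22, adjusted p = 0.116). In the Sall1 line none passed, where 9.8% of all genes did, and 1 of the 5, Aldoc, had an unadjusted p under 0.05. Aldoc had nearly the same ratio there, -0.52 ± 0.18 (adjusted p = 0.0676), which passed without Sall1 anti-HA library 3-2 (-0.65 ± 0.19, adjusted p = 0.0266) or anti-IgG library 3-2 (-0.63 ± 0.18, adjusted p = 0.0219). It was -0.79 ± 0.20 (adjusted p = 0.0119) without all Sall1 libraries of first number 3, and 0.07 ± 0.31 (adjusted p = 0.956) with only those kept. Gfap had ratios of 0.32 ± 0.18 (interval -0.05 to 0.69, adjusted p = 0.286) in the Sall1 line and 0.23 ± 0.18 (-0.14 to 0.60, adjusted p = 0.371) in the Lyve1 line. In the same precipitates the microglial markers summed to 2248 to 4298 CPM in Sall1 anti-HA against 580 to 638 in Sall1 anti-IgG.

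Members of the pathway lists passed between precipitates in both directions at steady state, where 25.7% of all genes passed in the Lyve1 line and 9.8% in the Sall1 line. Of 14 other glycolysis genes, 3 were lower in anti-HA in each line and none higher, with medians of -0.27 in the Lyve1 line and -0.24 in the Sall1 line against 0.01 and -0.01 over all genes. Those with the smallest p were Hk1 (-0.92 ± 0.13 in Lyve1 and -0.64 ± 0.12 in Sall1) and Ldha (-0.54 ± 0.10 and -0.59 ± 0.10). Of 12 endfoot genes, 1 was higher and 4 lower in Lyve1 anti-HA, among them Clcn2 (-1.12 ± 0.19) and Mlc1 (-0.58 ± 0.13), and 1 was higher in Sall1 anti-HA. Of 11 genes of the Il6-type pathway, 1 was higher and 2 lower in Lyve1 anti-HA. The lower ones were the kinase Jak1 (-0.92 ± 0.15) and the shared receptor subunit Il6st (-0.92 ± 0.21). In Sall1 anti-HA 1 was higher, Cebpb (0.80 ± 0.19), and 1 lower, Jak1 (-0.71 ± 0.15). None of 5 filament partners passed in either line. Of 27 astrocyte markers, 5 were higher and 3 lower in Lyve1 anti-HA, and 1 higher and 1 lower in Sall1 anti-HA. The one with the smallest p in both, Cst3, cystatin C, a protease inhibitor that microglia and other macrophages also make in quantity, was higher by 1.13 ± 0.14 in Lyve1 and 1.80 ± 0.15 in Sall1.

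The same comparison was made after LPS, where 9.62% of all genes passed. Of 27 astrocyte markers, 7 were higher and 1 lower in anti-HA than in anti-IgG, with Cst3 (1.14 ± 0.13) and Htra1 (0.77 ± 0.15) at the smallest p. Of 9 pan-reactive genes 3 were higher and none lower, with Lcn2 (1.29 ± 0.20) and Timp1 (1.15 ± 0.30), an inhibitor of matrix proteases, at the smallest p. Of 9 LPS-type genes 3 were higher and none lower, with Srgn (1.58 ± 0.32) and Serping1 (1.44 ± 0.33) at the smallest p. Of 4 injury-type genes 2 were higher and none lower, S100a10 (0.97 ± 0.23) and Cd14 (1.31 ± 0.36). Of 5 filament partners 1 was lower, Nes (-1.19 ± 0.37), an intermediate filament of progenitors. Of 13 endfoot genes 2 were lower, Utrn (-1.41 ± 0.39) and Kcnj10 (-0.65 ± 0.21). Of 14 glycolysis genes the neuronal enolase Eno2 was higher (0.60 ± 0.16) and Hk1 lower (-0.40 ± 0.13).

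**Figure D4:**
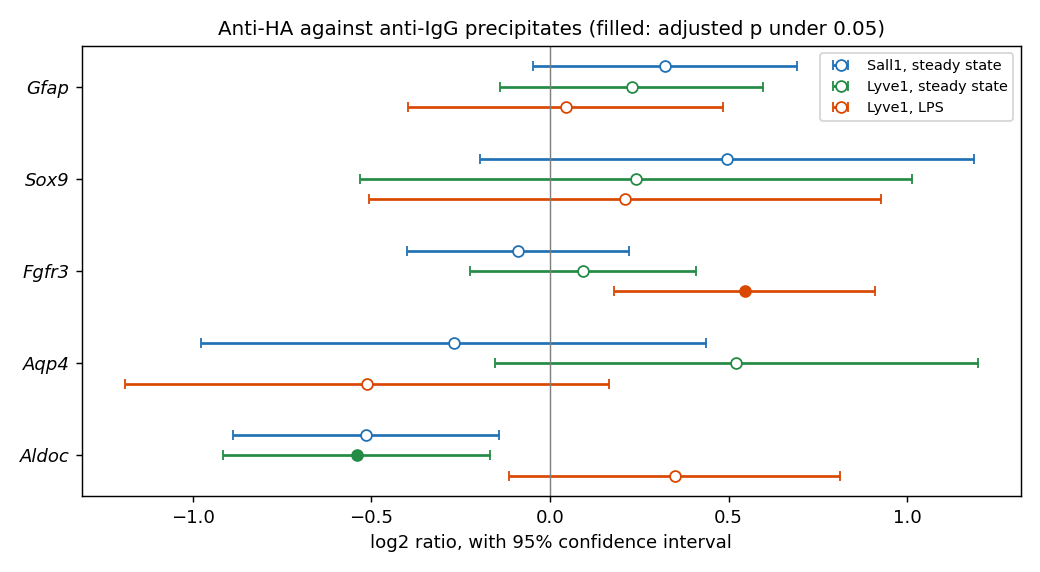
Log2 ratio of anti-HA against anti-IgG precipitates with 95% confidence intervals for the 5 genes in the Sall1 line, the Lyve1 line and the Lyve1 line after LPS; filled points have an adjusted p under 0.05. Only Aldoc in the Lyve1 line at steady state (-0.54) and Fgfr3 after LPS (0.55) passed.

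None of the 5 genes passed between the lines. Between the anti-HA precipitates 0 of 5 passed, where 1.4% of all genes did, and 1 of the 5, Aqp4, had an unadjusted p under 0.05. Aqp4 had a ratio of -0.93 ± 0.34 in Sall1 against Lyve1 (interval -1.62 to -0.24, adjusted p = 0.191), which became -1.82 ± 0.38 (adjusted p = 0.00153) in the joined fit with the term for Y-linked counts and -1.73 ± 0.39 (adjusted p = 0.0088) when only the Sall1 libraries without such counts were kept. Sox9 had a ratio of 0.48 ± 0.35 (adjusted p = 0.529) and Gfap of -0.19 ± 0.18 (adjusted p = 0.648). Between the anti-IgG precipitates 0 of 5 passed with edgeR, as did 0% of all genes, although 644 of 9619 genes had an unadjusted p under 0.05 and DESeq2's Wald test called 14. For the difference in anti-HA to anti-IgG ratio between the lines 0 of 5 passed, where 0.218% of all genes did, and the estimates ran from -0.79 ± 0.48 for Aqp4 to 0.26 ± 0.51 for Sox9.

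Ordered by mean level over the 6 groups, LPS anti-HA stood highest and LPS anti-IgG next for Gfap, Sox9, Fgfr3 and Aldoc. Below them, from low to high, the order was Sall1 anti-IgG, Lyve1 anti-IgG, Sall1 anti-HA and Lyve1 anti-HA for Gfap, and Lyve1 anti-IgG, Lyve1 anti-HA, Sall1 anti-IgG and Sall1 anti-HA for Sox9. For Fgfr3 it was Sall1 anti-HA, Lyve1 anti-IgG, Sall1 anti-IgG and Lyve1 anti-HA, and for Aldoc Sall1 anti-HA, Lyve1 anti-HA, Sall1 anti-IgG and Lyve1 anti-IgG. For Aqp4 the order of all 6 was Sall1 anti-HA, LPS anti-HA, Sall1 anti-IgG, Lyve1 anti-IgG, LPS anti-IgG and Lyve1 anti-HA. The highest group mean was 7.08 times the lowest for Gfap, 3.49 times for Sox9, 2.11 times for Fgfr3, 1.90 times for Aqp4 and 2.19 times for Aldoc. Among neighbours in these orders the libraries of 1 pair did not overlap, Lyve1 anti-HA and LPS anti-IgG for Gfap. The share of all genes whose groups do not overlap was not counted. Non-overlap, here and above, is therefore given only as a description.

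Over all 32 libraries, the log2 level of Gfap was most like that of Lcn2 (Pearson r = 0.954), Socs3 (0.943) and Ctla2a (0.938) among 8381 genes ranked. After the group means were taken out, those correlations were 0.35, 0.56 and 0.23. Sox9 was most like Ier3 (0.843), Mt2 (0.821) and Sdc4 (0.801), and Fgfr3 like Itih3 (0.854), Htra1 (0.851) and Lbp (0.819). Aqp4 was most like Ptpmt1 (0.816), Rit2 (0.810) and Slc20a1 (0.802), with 0.84, 0.80 and 0.85 after the group means were taken out. Aldoc was most like C4b (0.702), Emilin2 (0.701) and Nudt22 (0.687). Among the 5 themselves, Gfap and Fgfr3 had r = 0.743 over all libraries and 0.23 within groups, and Sox9 and Aqp4 had -0.328 and -0.46. These correlations share libraries, depth and the group differences and are given as descriptions.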

How the data were processed

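RNA of anti-HA and anti-IgG precipitates of mouse brain was measured by MARS-seq, per the labels' protocols. The authors deposited raw counts per gene, log2 fold changes and adjusted p-values of their own comparisons, per the file headers. The submitters' processing notes name the build mm9, and the aligner and counter are not given in the sources used here. Columns of 28 further libraries that match no sample were not used. The 12 libraries in both tables had identical counts.

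From the counts, genes were filtered with filterByExpr (minimum count 10, total 15), leaving 9619 and 9680 genes with 99.04% of counts in each table, scaled by TMM and tested with edgeR 4.0.16 (robust quasi-likelihood, R 4.3.3) over the 4 groups of each table, with DESeq2 1.42.0 and limma 3.58.1 as alternatives. On data simulated for LPS in anti-HA, 64% of 2-fold and 100% of 4-fold rises were recovered over 9425 genes. The 5 genes and all lists were chosen with earlier results of these data known. From each list the text names up to 2 passing genes per contrast with the smallest p, plus directly related genes whatever their p (Vim, Sox2, Sox8, Fgfr1, Fgfr2, Kcnj10 and Aldoa; 1 further gene is not reported here), and says where others were added after values were seen. Likeness was ranked among genes with a mean of at least 10 counts, on log2 CPM with a prior count of 2.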

Additional observations from a re-analysis of the deposited data

Results flagged for a closer look

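In 30 sets of a gene and a group, 4 libraries stood apart from the rest of their group by the size of the gap to the next library relative to the group's range, a test in which chance marks about 1 set in 20. Gfap was highest in Sall1 anti-HA library 3-1, at 220.1 CPM where the next highest held 149. Gfap was also highest in Sall1 anti-IgG library 2-1, at 153.8 CPM against 118. Aldoc was lowest in Lyve1 anti-HA library 3-2, at 19.65 CPM where the next lowest held 26.2. Aldoc was highest in Lyve1 LPS anti-HA library 2-2, at 70.33 CPM against 42.5.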

How the results depend on the processing

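Of 553 values of the 5 genes recomputed under 15 other settings, 518 kept their direction and their side of the threshold, as did 547 of 600 with 1 library left out. Depth limits Sox9 most, with as few as 2 counts in a library. The LPS ratio of Gfap ran from 2.20 to 2.54 in anti-HA and from 2.43 to 2.75 in anti-IgG and passed in all. The rise of Fgfr3 in anti-IgG lost its call with DESeq2's size factors (0.48), without TMM (0.45), without the filter (0.46), with DESeq2's Wald test (0.48), with the replicate block (0.45), with libraries sharing a first number summed (0.46), without libraries under 0.5 of the median total (0.49) and in the joined tables without (0.48) and with (0.66) the term for Y-linked counts, the last chosen after seeing the data. That term also gave Aqp4 a ratio of -1.83 in anti-HA, which passed, and of -0.77 in anti-IgG, of the opposite sign, and took Aldoc in anti-HA below the threshold (0.70). The cause of these changes was not tested.

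With libraries sharing a first number summed, which leaves fewer samples, the counts of genes that passed were 163 for Sall1 anti-HA against anti-IgG, 1005 for Lyve1, 29 for Sall1 against Lyve1 anti-HA, 4 and 70 for the interactions with line and with LPS, 443 between LPS precipitates and 1126 for LPS in anti-HA. With only the compared groups fitted, Sall1 anti-HA against anti-IgG gave 541, and Sox9 did not pass the filter in 2 comparisons. For Sall1 against Lyve1 anti-IgG, 0 genes passed in edgeR (644 had an unadjusted p under 0.05), while DESeq2's Wald test gave 14, omitting Sall1 libraries with first number 3 gave 17 and omitting those with Y-linked counts, which are first numbers 1 and 2, gave 63. Omitting the latter gave 69 for Sall1 anti-HA against anti-IgG, 900 for Sall1 against Lyve1 anti-HA and 0 for the interaction with line, where omitting first number 3 gave 32. With the Y-linked term the counts were 1762, 298, 2575 and 203 for Sall1 against Lyve1 anti-HA, the same in anti-IgG, LPS in anti-HA and the interaction with LPS. That interaction gave 543 with DESeq2's Wald test, 502 with limma-voom, 175 without libraries of low total and 88 in the joined tables.

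Aside from Aldoc between the Sall1 precipitates, estimates that crossed 0 under these settings did not pass on either side of it. They were the interaction of Gfap with line (-0.016 without libraries of low total and -0.12 without first number 3), of Sox9 with LPS (0.0045 without TMM and 0.13 with limma-voom) and with line (-0.10 without Y-linked libraries), and of Aldoc with line (-0.25 without first number 3). Without Y-linked libraries Aldoc was 0.066 for Sall1 anti-HA against anti-IgG and Gfap 0.13 for Sall1 against Lyve1 anti-HA. Without first number 3 the same Aldoc ratio was -0.79 and passed (adjusted p = 0.0119). In that setting Sox9, Fgfr3 and Aqp4 were -0.20, -0.013 and 0.21 for Sall1 against Lyve1 anti-IgG.

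Library numbers were not taken as pairs in the main fit, since no label ties them to animals. The correlation of same-numbered libraries exceeded 0.1 for 5 of 6 pairs of precipitates in each line at steady state and for 1 of 4 after LPS. At steady state 3 of 6 Sall1 and 2 of 6 Lyve1 libraries correlated best with their own number. These values do not settle whether same-numbered libraries are pairs. With the replicate block 1 gene passed for Sall1 against Lyve1 anti-IgG and 209 for anti-HA, and 1 call of 70 for the 5 genes changed, that of Fgfr3 above. The ratio change of Sox9 with LPS was 0.089 with the block, and 0.091 with a block within line and treatment, added after seeing the data, under which 705 genes passed the interaction with LPS.

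With 1 library left out, gene counts ran from 1044 to 2324 for LPS in anti-HA, 875 to 1340 in anti-IgG, 127 to 890 for the interaction with LPS, 535 to 1102 between LPS precipitates, 2071 to 2335 between Lyve1 precipitates, 567 to 1135 between Sall1 precipitates, 90 to 196 between lines in anti-HA, 0 to 0 in anti-IgG and 16 to 26 for the interaction with line. LPS ratios in anti-HA ran from 2.15 to 2.53 for Gfap, 1.35 to 1.91 for Sox9, 0.76 to 1.06 for Fgfr3, -0.93 to -0.45 for Aqp4 and 0.66 to 0.95 for Aldoc. In anti-IgG they ran from 2.42 to 2.59, 1.10 to 1.70, 0.38 to 0.54, 0.21 to 0.59 and -0.13 to 0.14. Other ranges that crossed 0 were -0.12 to 0.10 for Aldoc, -0.081 to 0.29 for Gfap (both the interaction with line), -0.30 to 0.032 for Aqp4 and -0.040 to 0.12 for Fgfr3 (both Sall1 against Lyve1 anti-IgG), -0.35 to 0.023 for Gfap and -0.21 to 0.41 for Sox9 (both the interaction with LPS), -0.12 to 0.17 for Gfap between LPS precipitates, -0.35 to 1.1e-06 for Gfap between lines in anti-HA, and -0.15 to 0.42 for Sox9 between Lyve1 precipitates.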
